A study of Mus musculus with 15 samples.

Results

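The earliest RNA response of CreER ESCs to deletion of *Pou5f1*, the gene of the transcription factor OCT4, was measured after 12 h of 4-OHT against the same cells before treatment. The libraries were chosen by their labelled line and time, which gave 2 libraries at 12 h and 2 at 0 h, 4 of the 15 libraries of the series. The series followed mouse ESCs as they lost OCT4 by either of 2 routes, deletion of the gene in CreER ESCs (0, 12, 18, 24 and 36 h) or auxin-driven removal of a degron-tagged protein in O4AID ESCs (0, 1.5, 6, 10 and 24 h). CreER ESCs had the genotype Oct4Fl/-; CAG CreER on a Mixed 129SV C57BL/6 background, with a floxed *Pou5f1* allele opposite a β-geo insertion allele and a Cre-oestrogen receptor fusion driven by the ubiquitous CAG promoter. All 4 libraries share this genotype and the culture medium, N2B27 with PD03, Chiron and LIF, and they differ by 500 nM 4-OHT for 12 h against no treatment. No library here came from CreER ESCs given vehicle, or from ESCs without a floxed allele given 4-OHT. Loss of *Pou5f1*, active Cre, the drug and any such change of medium therefore cannot be told apart within this comparison. The labels do not say that replicates were separate cultures, so p-values measure the spread between libraries of the same time, which may be technical. That spread was estimated from all 10 CreER libraries, not from the 4 compared alone.

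OCT4 is a POU-domain factor that binds an octamer motif, often beside SOX2, and holds naive ESCs in self-renewal together with NANOG, SOX2 and other members of the pluripotency network. Its complete loss leads ESCs out of pluripotency and toward trophectoderm, the outer lineage of the blastocyst. In CreER ESCs, 4-OHT lets the Cre fusion enter the nucleus and recombine the floxed gene, after which the existing mRNA and protein decay at their own pace, so cells sampled early can still hold OCT4.

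The 0 h libraries held 24.5 and 29.2 M (mega) counted reads and the 12 h libraries 30.8 and 24.8 M. Levels are given as TMM-scaled counts per mega-count (CPM), and fold changes on the log2 scale. The 8 ESC markers were detected in all 4 libraries, at 53.3 to 636 CPM each, and their sum was 2501 and 2420 CPM at 0 h against 2450 and 2410 CPM at 12 h. The 9 fibroblast markers summed to 23.5 and 23.3 CPM at 0 h and 26.2 and 26.2 CPM at 12 h, with *Col1a2*, *Postn*, *Dcn* and *Lum* under 1 CPM in all 4 libraries and *Acta2* the highest, at 16.4 CPM. Mitochondrially encoded genes took 8.54% and 9.32% of the reads at 0 h and 11% and 12.77% at 12 h, and nuclear ribosomal RNA took 0.14% and 0.38% at 0 h and 0.04% and 0.11% at 12 h.

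*Pou5f1* (ENSMUSG00000024406, GRCm38/mm10, chromosome 17, 35506018 to 35510772, plus strand) was measured at 330.0 and 324.4 CPM at 0 h and at 225.6 and 234.9 CPM at 12 h. Both 12 h libraries lay below both 0 h libraries, and the level at 12 h was 0.704 of that at 0 h. The log2 fold change was -0.51 (SE 0.043, adjusted p 5.15e-08), and it stayed between -0.55 and -0.48 under every alternative tried. The counts cover all exons of the gene, so they do not show whether the transcript counted was intact. Fewer cells with the transcript and less transcript per cell cannot be told apart, here or for any other gene in these bulk samples.

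The next question was whether genes beside the recombined locus moved with it. Within 500 kb of *Pou5f1* on either side, 98 other genes are annotated and 61 were tested, and of these 2 rose and 0 fell, against a background of 0.258% of the 18969 genes tested that rose and 0.137% that fell. Both lie just past the end of *Pou5f1*, on its strand. The median log2 fold change of the neighbourhood was 0.04.

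*Cchcr1* (ENSMUSG00000040312, chromosome 17, 35517100 to 35531015), which encodes a coiled-coil protein of centrosomes and P-bodies and starts 6328 bases after *Pou5f1*, stood at 19.0 and 22.0 CPM at 0 h and at 79.0 and 73.2 CPM at 12 h. The groups were far apart, and this was the gene with the smallest p of all tested. The level at 12 h was 3.7 times that at 0 h (log2 fold change 1.89, SE 0.061, adjusted p 5.5e-18), and the log2 value was between 1.79 and 2.01 under every alternative. *Psors1c2* (chromosome 17, 35533201 to 35534647), a gene of the psoriasis susceptibility region that starts 22429 bases after *Pou5f1*, stood at 6.94 and 5.65 CPM at 0 h and at 9.46 and 8.76 CPM at 12 h. Its log2 fold change was 0.55 (SE 0.114, adjusted p 0.0203), and the call was lost in DESeq2, in the fit of the 4 libraries alone, without 0 h replicate 2 and without either 12 h library, with an adjusted p as high as 0.478. *Tcf19*, a growth-related gene that lies between *Pou5f1* and *Cchcr1* on the opposite strand, stood at 10.5 and 9.40 CPM at 0 h and at 11 and 9.18 CPM at 12 h (log2 fold change 0.04, SE 0.112, adjusted p 0.962). The groups overlapped for *Tcf19*, the nearest of these genes to *Pou5f1*, and did not for the called pair on the strand of *Pou5f1*.

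Per kilobase of exon, *Pou5f1* went from 146 ± 1.74 to 102 ± 2.90 CPM per kb (SD, n = 2), and *Cchcr1* from 3.72 ± 0.390 to 13.8 ± 0.741 CPM per kb. By this level per length *Cchcr1* was below *Tcf19* at 0 h (5.58 ± 0.424 CPM per kb) and above it at 12 h (5.67 ± 0.731 CPM per kb). The 250 bases before the first RefSeq start of *Pou5f1* (chr17:35505782-35506031, plus strand) and of *Cchcr1* (chr17:35516799-35517048, plus strand) are shown because these are the starts of the genes with the smallest p among the falls and among the rises, in the build GRCm38.p6 (RefSeq). Neither holds the octamer, which would be in capitals.
Pou5f1: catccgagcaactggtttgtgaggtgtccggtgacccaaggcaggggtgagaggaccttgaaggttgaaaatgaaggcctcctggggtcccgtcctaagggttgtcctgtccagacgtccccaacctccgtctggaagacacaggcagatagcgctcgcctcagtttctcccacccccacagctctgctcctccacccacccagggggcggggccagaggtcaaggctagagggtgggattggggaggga
Cchcr1: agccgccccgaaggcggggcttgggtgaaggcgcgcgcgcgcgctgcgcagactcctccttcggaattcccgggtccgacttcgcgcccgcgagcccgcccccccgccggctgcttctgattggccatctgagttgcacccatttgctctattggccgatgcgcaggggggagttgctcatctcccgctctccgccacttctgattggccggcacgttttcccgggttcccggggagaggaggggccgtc

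**Figure D1:**
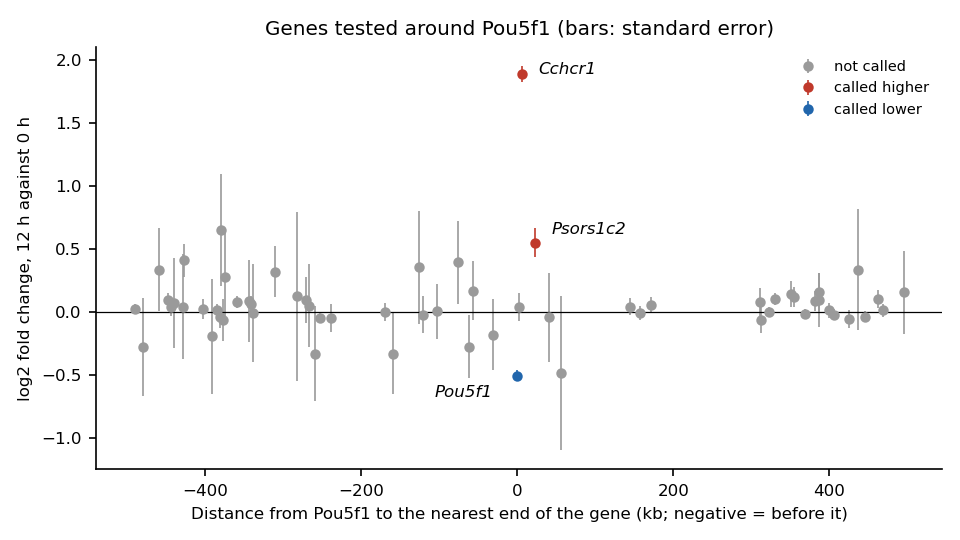
The log2 fold change at 12 h against 0 h (y axis) of the genes tested within 500 kb of *Pou5f1*, by distance to the nearest end of each gene in kb (x axis), with standard errors as bars. *Cchcr1* at 1.89 and *Psors1c2* at 0.55, both just after *Pou5f1*, are the neighbours called, while *Pou5f1* itself is at -0.51.

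Across the genome, 75 of 18969 genes tested (0.395%) differed between 12 h and 0 h at an adjusted p under 0.05, of which 49 were higher and 26 lower. The changes were small: the median log2 fold change was 0.35 among the genes that rose and -0.26 among those that fell, and 2 genes, *Cchcr1* and *mt-Tl1*, changed by at least 1. In all 75 the 12 h and 0 h libraries did not overlap, which was also so for 19.2% of genes tested in the upward and 19.0% in the downward direction. Such separation of a called gene is therefore no added support for its call. At an unadjusted p under 0.05 there were 1649 genes (8.69%). Scaling by total counts instead of TMM turned the split to 31 higher and 53 lower. The number rested on single libraries too: 218 genes were called without 0 h replicate 1, 50 without 0 h replicate 2, 8 without 12 h replicate 1 and 12 without 12 h replicate 2, and of the 75 genes 59, 26, 8 and 12 kept their call. *Pou5f1*, *Cchcr1*, *Icam1*, *Ak4* and *mt-Rnr1* kept it in every alternative in which they were tested, and 0 of the 75 changed sign.

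**Figure D2:**
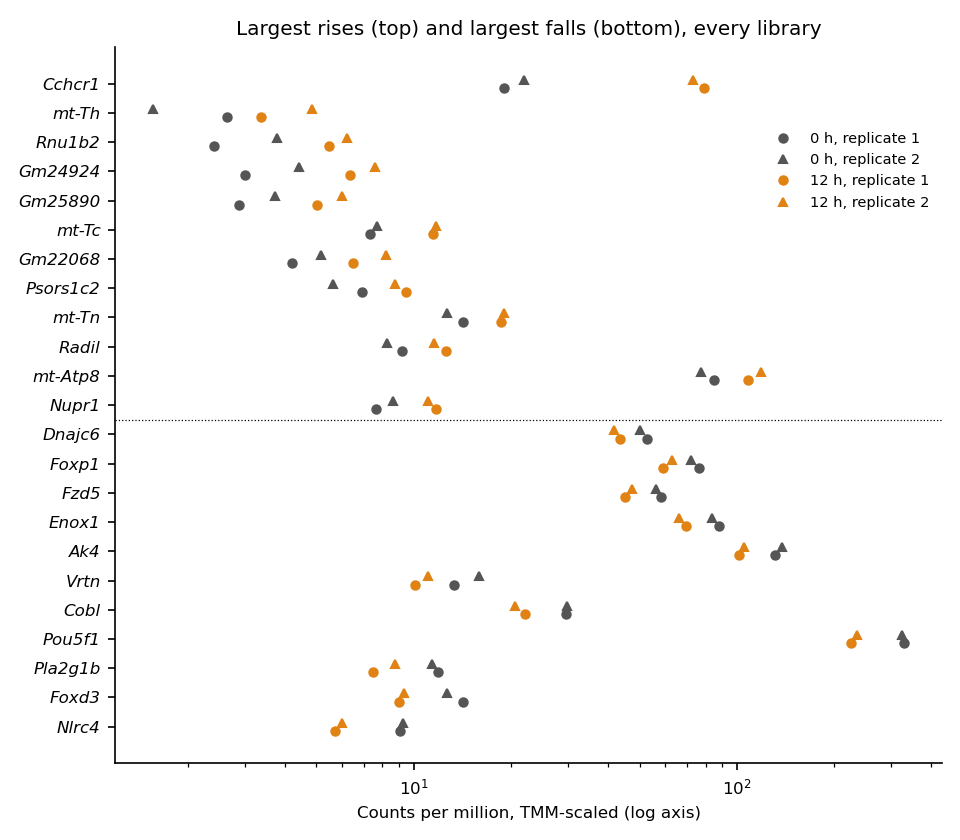
TMM-scaled CPM (x axis, log scale) of the 12 largest rises and 11 of the largest falls among called genes with a mean of at least 50 counts (y axis), with circles for replicate 1, triangles for replicate 2, grey for 0 h and orange for 12 h. The orange and grey points of each gene do not overlap, and the gap is widest for *Cchcr1*, from 19.0 and 22.0 to 79.0 and 73.2 CPM.

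The genes that fell included regulators of transcription beside *Pou5f1*. *Foxd3*, a forkhead factor of pluripotent cells and neural crest, stood at 14.2 and 12.7 CPM at 0 h and at 9.04 and 9.34 CPM at 12 h, and its log2 fold change was -0.55 (SE 0.102, adjusted p 0.00796). *Foxp1*, a forkhead factor with an ESC-specific splice form, went from 76.3 and 72.2 to 59.2 and 62.8 CPM (-0.28, SE 0.055). For both genes the 12 h libraries were below both 0 h libraries. The call of *Foxd3* was lost in DESeq2, and its log2 fold change ranged from -0.63 to -0.47 over the alternatives. Other transcriptional regulators that fell were *Vrtn*, a vertebral patterning gene, at 13.3 and 15.9 CPM at 0 h and 10.1 and 11.1 CPM at 12 h (-0.48), *Mycn*, the MYC family proto-oncogene (-0.26), *Rest*, the repressor of neuronal genes (-0.20), *Trim24*, a chromatin reader (-0.19), *Hmgxb4*, an HMG-box protein (-0.18), and *Zfp985*, a zinc finger gene (-0.21).

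Signalling molecules were also found among the falls. *Fgf4*, the main FGF ligand made by ESCs, stood at 134.7 and 133.7 CPM at 0 h and at 117.0 and 111.7 CPM at 12 h (log2 fold change -0.23, SE 0.043, adjusted p 0.00796). *Tdgf1*, the Nodal co-receptor Cripto, stood at 656.5 and 735.4 CPM at 0 h and at 587.5 and 608.7 CPM at 12 h (log2 fold change -0.22, SE 0.045, adjusted p 0.0203). Neither gene overlapped between the groups, but both lost the call without either 12 h library, with an adjusted p as high as 0.244 for *Fgf4* and 0.468 for *Tdgf1*. *Tdgf1* lost it also without 0 h replicate 2 and in the fit of the 4 libraries alone. *Fzd5*, a Wnt receptor, went from 58.2 and 56.3 to 45.0 and 47.3 CPM (-0.31, SE 0.057), and *Lifr*, the receptor through which LIF acts, from 161.7 and 167.0 to 144.4 and 146.1 CPM (-0.18, SE 0.041, adjusted p 0.0491). The call of *Lifr* was lost in DESeq2 and in the fit of the 4 libraries alone.

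The other falls were of mixed function. *Nlrc4*, an inflammasome sensor with the largest fall of the called genes, stood at 9.07 and 9.27 CPM at 0 h and at 5.72 and 5.99 CPM at 12 h (-0.65, SE 0.119). *Pla2g1b*, a secreted phospholipase, stood at 11.9 and 11.4 CPM at 0 h and at 7.51 and 8.76 CPM at 12 h (-0.52, SE 0.105). *Cobl*, an actin nucleator, stood at 29.7 and 29.9 CPM at 0 h and at 22.1 and 20.6 CPM at 12 h (-0.48, SE 0.070). In *Nlrc4* and *Cobl* the replicates of a group were close, while those of *Pla2g1b* at 12 h were further apart. The call of *Pla2g1b* was lost in DESeq2 and in the fit of the 4 libraries alone, and that of *Nlrc4* in DESeq2. *Ak4*, a mitochondrial adenylate kinase, had the smallest p of the falls after *Pou5f1*, with 130.9 and 138.1 CPM at 0 h and 101.6 and 105.4 CPM at 12 h (-0.38, SE 0.044, adjusted p 1.79e-05). *Enox1*, a cell-surface oxidase, went from 87.9 and 83.5 to 69.7 and 66.2 CPM (-0.33), and *Dnajc6*, the clathrin-uncoating cochaperone auxilin, from 52.7 and 50.3 to 43.4 and 41.7 CPM (-0.27). The others were *Slc7a3*, a cationic amino acid transporter (-0.26), *Pgap1*, which remodels GPI anchors (-0.26), *Nexmif*, an X-linked neuronal gene (-0.24), and *G2e3*, a ubiquitin ligase (-0.23). *Gm38393* (-0.26), whose exons are shared in part with *Snrpn*, and the pseudogene *Pgk1-rs7* (-0.23) are uncertain, since their reads may come from other copies.

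Among the genes that rose were both Lefty genes, secreted inhibitors of Nodal signalling. *Lefty1* stood at 33.3 and 30.5 CPM at 0 h and at 38.7 and 42.4 CPM at 12 h (log2 fold change 0.35, SE 0.067, adjusted p 0.011). *Lefty2* stood at 61.7 and 57.6 CPM at 0 h and at 72.4 and 73.2 CPM at 12 h (log2 fold change 0.29, SE 0.053, adjusted p 0.00729). Both were higher in each 12 h library than in each 0 h library, and both lost the call without 0 h replicate 2 or without either 12 h library, with adjusted p values up to 0.263 and 0.173. The ligand *Nodal* itself stood at 80.5 and 74.3 CPM at 0 h and at 82.0 and 79.0 CPM at 12 h, with groups that overlapped. Of the 11 tested members of the Nodal and BMP target list, 2 rose and 0 fell, where 0.258% of all genes tested rose. The median log2 fold change was 0.06, against 0.00 over all genes tested.

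Genes of cholesterol synthesis and uptake, which the factor SREBP2 drives when sterols are low, were the list with the most calls. Of its 18 tested members 4 rose and 0 fell, where 0.258% of all genes tested rose. All 18 had a positive log2 fold change, as 49.9% of all genes did, and the median was 0.12. *Msmo1*, a sterol oxidase, stood at 90.7 and 89.9 CPM at 0 h and at 110.5 and 109.8 CPM at 12 h (0.29, SE 0.045, adjusted p 0.0023). *Fdft1*, squalene synthase, stood at 58.7 and 58.9 CPM at 0 h and at 68.9 and 71.6 CPM at 12 h (0.26, adjusted p 0.0153), and is uncertain because its exons overlap those of *Ctsb* on the other strand by 767 bases. In both genes the replicates differed by less than the groups. *Insig1*, which holds SREBP in the endoplasmic reticulum and is itself a target, had a log2 fold change of 0.21 (adjusted p 0.0397). Its call was lost under the other scalings, in DESeq2 and in the fit of the 4 libraries alone. *Scd1*, a fatty acid desaturase outside the list, rose from 83.2 and 80.2 to 94.3 and 99.9 CPM (0.25, adjusted p 0.0138). Total-count scaling left 16 of the 18 positive with 1 called, and the list had 3 calls without 0 h replicate 1, 1 without 0 h replicate 2 and 0 without 12 h replicate 1 or without 12 h replicate 2.

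Several of the called rises encode proteins of the cell surface or matrix, grouped here after the calls were seen. *Icam1*, an adhesion molecule of the immunoglobulin family, stood at 83.5 and 79.5 CPM at 0 h and at 108.6 and 104.6 CPM at 12 h (0.39, SE 0.045, adjusted p 1.79e-05). This was the smallest p among the rises after *Cchcr1*, and the groups were well apart. *Aqp3*, a water and glycerol channel also found in trophectoderm, stood at 43.7 and 39.0 CPM at 0 h and at 56.2 and 50.1 CPM at 12 h (0.37, SE 0.062, adjusted p 0.00375). Its call was lost without 0 h replicate 2 or 12 h replicate 1, with an adjusted p up to 0.325. The others of this kind were *Susd2*, a sushi domain protein (0.46), *Kirrel2*, a nephrin relative (0.36), *Slc39a4*, a zinc importer (0.31), *Gprc5c*, an orphan receptor (0.29), *Tspan9*, a tetraspanin (0.24), *Erbb3*, a receptor of the EGF family (0.24), *Lama5*, a laminin chain (0.23), *Pecam1*, an adhesion molecule of endothelium and naive ESCs (0.22), and *Lgals1*, galectin 1 (0.25). The calls of *Susd2*, *Kirrel2* and *Pecam1* were lost under the other scalings, in DESeq2 and in the fit of the 4 libraries alone. Those of *Gprc5c* and *Tspan9* were lost under total-count scaling and in the fit of the 4 libraries. Total-count scaling also lost those of *Erbb3* and *Lama5*.

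Cytoskeletal genes that rose were *Map1a*, a microtubule-associated protein (0.35) that is uncertain because its exons overlap those of *Ppip5k1* on the other strand by 272 bases, *Afap1*, an actin filament partner (0.32), *Specc1* (0.29), *Plec*, the cytolinker plectin (0.28), *Tubb3*, a tubulin common in neurons (0.23), and *Tagln2*, transgelin 2 (0.20). *Radil*, a RAP1 effector, stood at 9.19 and 8.25 CPM at 0 h and at 12.6 and 11.6 CPM at 12 h (0.48, SE 0.095). Stress-related genes included *Nupr1*, a stress-induced chromatin protein, which stood at 7.66 and 8.66 CPM at 0 h and at 11.7 and 11.1 CPM at 12 h (0.48, SE 0.098). The calls of *Radil* and *Nupr1* were lost in DESeq2 and in the fit of the 4 libraries alone. *Gadd45b* (0.33), *Sqstm1*, the autophagy receptor p62 (0.18), *Nqo1*, a quinone reductase (0.27), and *Txnrd1*, thioredoxin reductase (0.22) also rose. The remaining protein-coding rises were *Selenow* (0.43) and *Selenoh* (0.31), which encode selenoproteins, *Hs3st3b1*, a heparan sulphate sulphotransferase (0.42), *Hr*, the corepressor hairless (0.38), *Grasp*, a scaffold protein (0.36), and *Zswim8*, a part of a ubiquitin ligase that degrades microRNAs (0.32). The calls of *Specc1*, *Hr* and *Sqstm1* were lost under the other scalings, in DESeq2 and in the fit of the 4 libraries alone. Those of *Tagln2*, *Gadd45b*, *Nqo1*, *Grasp* and *Zswim8* were lost under total-count scaling, in DESeq2 and in the fit of the 4 libraries. That of *Map1a* was lost in the fit of the 4 libraries, and those of *Tubb3* and *Txnrd1* under total-count scaling.

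Mitochondrially encoded genes were higher at 12 h, as was their share of all reads given above, and what part the libraries' composition had in this was not tested. Of 29 tested, 6 rose (0.258% of all genes did) and 0 fell, 27 had a positive log2 fold change (49.9% of all genes) and the median was 0.52, or 0.47 with 7 called under total-count scaling. *mt-Rnr1*, the small mitochondrial ribosomal RNA, stood at 9759 and 10643 CPM at 0 h and at 13081 and 13319 CPM at 12 h (0.37, SE 0.045, adjusted p 0.000397). The groups were apart, and the call held without any 1 library. *mt-Rnr2*, the large ribosomal RNA, stood at 67972 and 75766 CPM at 0 h and at 89431 and 108636 CPM at 12 h (0.46), with replicates at 12 h that were far apart and an adjusted p of 0.494. The called members beside *mt-Rnr1* were *mt-Atp8*, an ATP synthase subunit, at 84.9 and 77.3 CPM at 0 h and 107.9 and 118.8 CPM at 12 h (0.48, adjusted p 0.0491), and the transfer RNAs *mt-Tl1* (1.56), *mt-Th* (0.97), *mt-Tc* (0.63) and *mt-Tn* (0.49). *mt-Tc* stood at 7.34 and 7.68 CPM at 0 h and at 11.5 and 11.7 CPM at 12 h, and *mt-Tn* at 14.2 and 12.7 CPM and at 18.6 and 19.1 CPM. *mt-Th* stood at 2.65 and 1.56 CPM at 0 h and at 3.38 and 4.84 CPM at 12 h. *mt-Tl1* was near the limit of detection, at 0.52 and 0.27 CPM at 0 h and 1.17 and 1.12 CPM at 12 h. *mt-Atp8* (7766 to 7969) is uncertain, because it overlaps *mt-Atp6* (7927 to 8607) on the same strand. The number of calls in the set was 8, 3, 2 and 1 without 0 h replicate 1, 0 h replicate 2, 12 h replicate 1 and 12 h replicate 2. With all mitochondrial genes left out of the fit, 68 genes were called, all of them among the 75. The pseudogene *Gm10222* (0.46), at 18.1 and 16.3 CPM at 0 h and 22.4 and 24.9 CPM at 12 h, is uncertain.

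A few small nuclear RNAs were among the rises, and are uncertain because near-identical copies share reads. Of 58 tested, 4 rose (0.258% of all genes did) and 0 fell, and 43 had a positive log2 fold change (49.9% of all genes), with values down to -1.26. *Rnu1b2*, a copy of U1, stood at 2.41 and 3.79 CPM at 0 h and at 5.46 and 6.20 CPM at 12 h (0.88, SE 0.164). *Gm24924* stood at 3.01 and 4.43 CPM at 0 h and at 6.37 and 7.57 CPM at 12 h (0.88, SE 0.181), and *Gm25890* at 2.89 and 3.72 CPM and at 5.04 and 5.99 CPM (0.72). *Gm22068* stood at 4.21 and 5.17 CPM at 0 h and at 6.50 and 8.23 CPM at 12 h (0.63). In each, 0 h replicate 1 was the lowest library, and without it 0 of the 58 were called, as was so without either 12 h library, while 13 were called without 0 h replicate 2. These libraries also differ in their share of nuclear ribosomal RNA, given above, and its part in this result was not tested.

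Of the genes that the study followed, 9 pluripotency and 5 trophectoderm genes were taken here. The study chose them in describing these same libraries, so their direction is not independent evidence. *Lifr* and *Elf5*, which the study lists among its RT-qPCR assays, are not in this set, and *Lifr* was called lower, as given above. None of the 14 differed at 12 h by the edgeR test, and DESeq2 called 0. An unadjusted p under 0.05 was held by 6, 4 of the pluripotency and 2 of the trophectoderm genes, and by 8.69% of all genes. *Nanog* stood at 577.7 and 572.1 CPM at 0 h and at 571.6 and 564.5 CPM at 12 h (-0.02, SE 0.037, adjusted p 0.944). *Sox2* stood at 277.1 and 267.0 CPM and at 256.1 and 266.0 CPM (-0.06). *Nr0b1*, the nuclear receptor DAX1, had the smallest p of the 9, with 25.4 and 25.8 CPM at 0 h and 22.3 and 19.4 CPM at 12 h (-0.29, adjusted p 0.112). *Tbx3* was at 60.5 and 57.3 CPM at 0 h and 71.6 and 67.5 CPM at 12 h (0.24, adjusted p 0.155). The log2 fold changes of the others were 0.11 for *Tfcp2l1*, -0.10 for *Zfp42*, -0.06 for *Sall4*, 0.03 for *Klf4* and 0.03 for *Prdm14*, and the latter pair turned negative under total-count scaling.

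The trophectoderm genes were low at both times. *Hand1* stood at 10.6 and 8.15 CPM at 0 h and at 10.1 and 10.7 CPM at 12 h (0.16), and *Cdx2* at 2.81 and 2.67 CPM and at 2.05 and 2.89 CPM (-0.17), with overlapping groups in both. *Krt7* went from 8.38 and 8.42 to 10.1 and 9.92 CPM (0.25, adjusted p 0.43), *Gcm1* from 4.89 and 5.14 to 5.79 and 6.33 CPM (0.26, adjusted p 0.541) and *Gata3* from 2.25 and 2.33 to 2.21 and 1.86 CPM (-0.16, adjusted p 0.876). Of the 16 other trophoblast genes 0 were called. An unadjusted p under 0.05 was held by 6, all with a positive change, and by 8.69% of all genes in either direction. The median was 0.14, with *Tfap2c* at 71.1 and 67.4 CPM at 0 h and 80.3 and 79.4 CPM at 12 h (0.21, adjusted p 0.13). Among 16 other naive pluripotency genes, 2 fell (*Fgf4* and *Tdgf1*), where 0.137% of all genes did, and the median was -0.08. Of the 16, 8 had an unadjusted p under 0.05, 6 lower and 2 higher. *Esrrb*, an orphan nuclear receptor, was at 282.5 and 253.1 CPM at 0 h and 313.6 and 294.1 CPM at 12 h (0.18, adjusted p 0.0885). Of 10 formative and primed epiblast genes, 1 fell (*Foxd3*, a call lost in DESeq2), where 0.137% of all genes did. Of the 10, 8 were negative, where 49.9% of all genes were positive, and the median was -0.12. An unadjusted p under 0.05 was held by 5 of them, all lower, and by 8.69% of all genes.

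**Figure D3:**
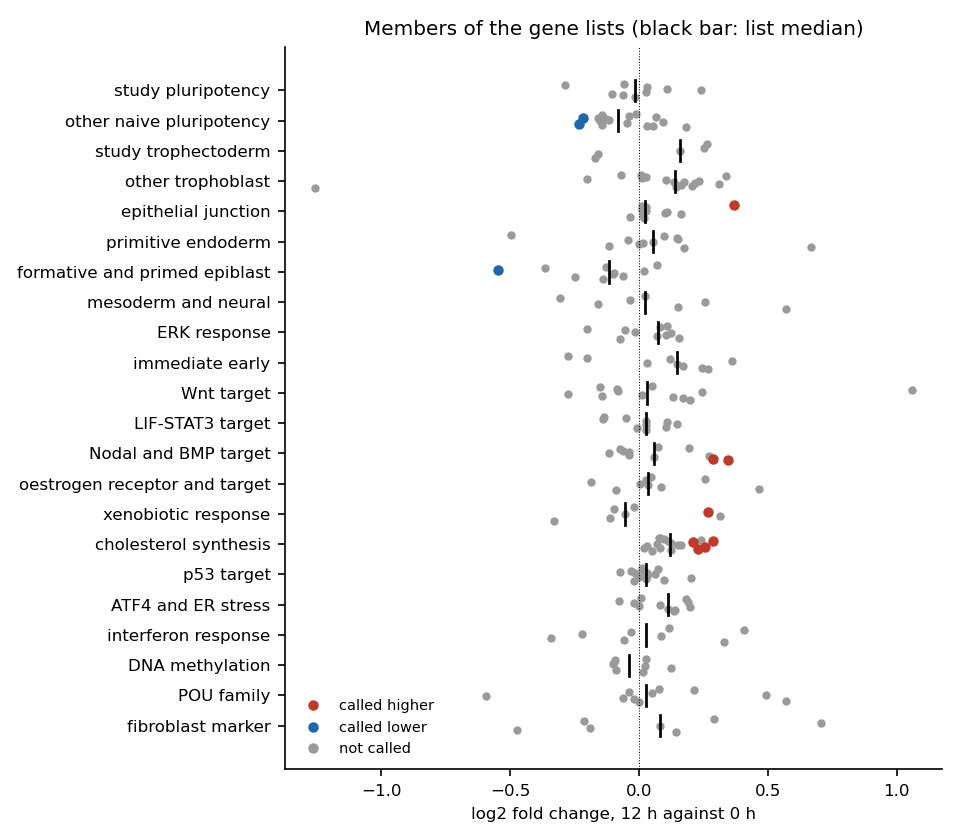
The log2 fold change at 12 h against 0 h (x axis) of the tested members of 22 gene lists (y axis), with the list median as a black bar, called members in red (higher) and blue (lower) and the rest in grey. Called members lie in 6 lists, 4 of them in cholesterol synthesis, and most grey points stand within 0.5 of 0.

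Other lists were examined for a response to the drug, to signalling or to damage. Of 9 tested oestrogen receptor genes and targets 0 were called and 1 had an unadjusted p under 0.05, *Igfbp4*, at 7.10 and 6.15 CPM at 0 h and 7.35 and 8.52 CPM at 12 h (0.26, adjusted p 0.556). Of 7 tested xenobiotic response genes 1 rose (0.258% of all genes did), and the list median was -0.055. It was *Nqo1*, at 46.5 and 48.4 CPM at 0 h and 57.8 and 56.3 CPM at 12 h. The *Nqo1* call was lost under total-count scaling, in DESeq2 and in the fit of the 4 libraries alone. Of 15 p53 targets 0 were called, and *Mdm2* had the smallest p (0.10, adjusted p 0.473). The ERK response list had 0 calls of 10 (*Spry4* 0.16, adjusted p 0.103), immediate early genes 0 of 9 (*Atf3* 0.36, adjusted p 0.447), Wnt targets 0 of 12 (*Lef1* -0.28, adjusted p 0.205) and LIF-STAT3 targets 0 of 10 (*Pim1* 0.11, adjusted p 0.541). There were likewise 0 calls among 11 genes of ATF4 and ER stress (*Atf4* 0.14, adjusted p 0.198), 8 interferon genes (*Bst2* 0.12, adjusted p 0.805), 8 DNA methylation genes (*Dnmt3b* -0.10, adjusted p 0.422) and 10 POU family genes (*Pou2f2* 0.57, adjusted p 0.452). Markers of other lineages gave 0 calls of 11 for primitive endoderm (*Col4a2* 0.15, adjusted p 0.292), 0 of 7 for mesoderm and neural cells (*Pax6* -0.31, adjusted p 0.289) and 0 of 7 for fibroblasts (*Acta2* 0.29, adjusted p 0.254). At an unadjusted p under 0.05, which 8.69% of all genes had, these lists ranged from 0 of 8 interferon genes to 5 of 11 primitive endoderm genes (4 higher, 1 lower) and 4 of 8 DNA methylation genes, all 4 lower. The epithelial junction list had 1 call of 12, *Aqp3*, where 0.395% of all genes were called. DESeq2 made 61 calls over all genes, 38 higher and 23 lower.

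The genes called at 12 h were then followed to later times. The 18, 24 and 36 h contrasts share the 0 h libraries with the 12 h contrast, so their values are given side by side only. For *Pou5f1* the log2 fold change was -0.51 at 12 h, and the later values in order of time were -0.96, -1.26 and -1.43. *Cchcr1* took the values 1.89, 2.46, 2.64 and 2.64, and *Foxd3* from -0.55 to -1.11, -1.57 and -1.70. *Lefty1* went from 0.35 to 0.43, 0.41 and -0.83, *Lefty2* from 0.29 to 0.22, 0.17 and -0.62, and *Kirrel2* from 0.36 to 0.33, -0.17 and -1.21. *Ak4* went from -0.38 to -0.33, -0.15 and 0.11. *Selenow* went from 0.43 to 0.20, -0.13 and -0.12.

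The contrast of 36 h with 24 h shares no library with the contrast of 12 h with 0 h. Both came from the same fit of the 10 CreER libraries, so they share each gene's estimate of spread. The counts below are therefore not independent of the 12 h calls. Of the 49 genes that rose by 12 h, 18 were called higher and 4 lower between 24 and 36 h, against 8.13% and 6.55% of all genes tested. Of the 26 genes that fell by 12 h, 16 were called lower and 1 higher. The 4 that had risen and then fell were *Lefty1* (-1.24, adjusted p 2.89e-12), *Kirrel2* (-1.04), *Lefty2* (-0.79) and *Psors1c2* (-0.37, adjusted p 0.0146), and the 1 that had fallen and then rose was *Ak4* (0.26, adjusted p 0.000131). *Cchcr1* had a log2 fold change of -0.01 between 24 and 36 h (adjusted p 0.958).

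**Figure D4:**
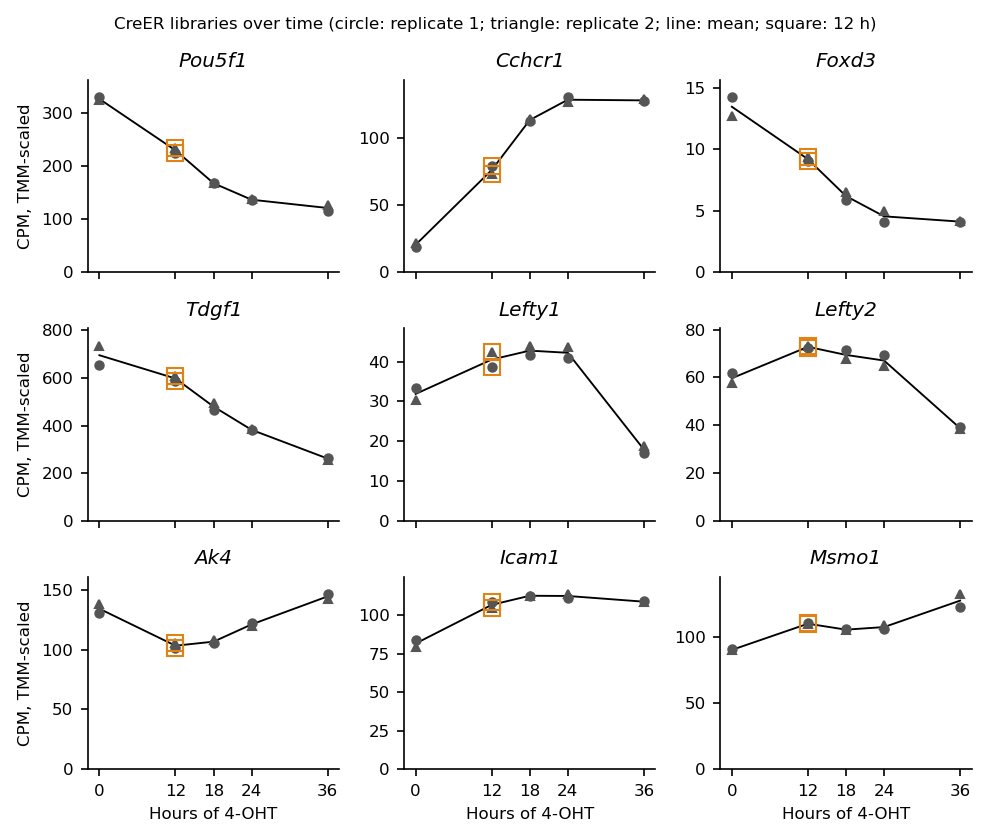
TMM-scaled CPM (y axis, from 0) against hours of 4-OHT (x axis) in the CreER libraries for 9 genes called at 12 h, with circles and triangles for replicates 1 and 2, a line through the means and squares at 12 h. The means of *Pou5f1*, *Foxd3* and *Tdgf1* fall at each time, that of *Cchcr1* is near its top by 24 h, and *Lefty1* and *Lefty2* are below their 0 h values at 36 h.

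O4AID ESCs (129SV) are Oct4-/-, carry TetOFF Oct4 together with the transgenes CAG Oct4AID and CAG Tir1, and lose a degron-tagged OCT4 protein on addition of the auxin IAA, and no Cre acts in them. Their libraries at 0 and 10 h of 500 µM IAA are separate from the CreER libraries, with 1 library at each time, so no test was possible, and the times and agents differ from 12 h of 4-OHT. Values are log2 ratios of CPM plus 1, and the 95% intervals (Clopper-Pearson) are of the ratio of counts without the added 1 and cover counting error only. *Cchcr1* had 1217 counts at 0 h and 1053 at 10 h, a log2 ratio of -0.01 (-0.14 to 0.11). The interval included 0.

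Of the 49 genes that rose in CreER by 12 h, 29 had a positive ratio in O4AID at 10 h, where 47.8% of all genes tested did, 7 were over 1.5-fold higher (3.71% of all genes) and 3 over 1.5-fold lower (2.99%). Of the 26 that fell, 15 had a negative ratio, where 49.8% of all genes did, 8 were over 1.5-fold lower and 3 over 1.5-fold higher. The added 1 shrinks the ratios of genes at low CPM, and the shares over all genes were not matched for level. *Tdgf1* had 9821 counts at 0 h and 1737 at 10 h (-2.28), *Cobl* 8017 and 1840 (-1.91), *Fzd5* 5027 and 1372 (-1.65), *Fgf4* 10722 and 3861 (-1.27) and *Foxd3* 366 and 115 (-1.21). These 5 genes were lower in both lines. *Lefty1* had 84 and 11 counts (-1.14, interval -3.80 to -1.83) and *Pecam1* 9092 and 3155 (-1.32), both opposite in sign to CreER at 12 h. The CreER call of *Pecam1* was not stable, as given above. *Ak4* had 23659 and 42948 counts (1.05), also opposite to its fall in CreER. *Gprc5c* (1.42), *Tubb3* (1.18), *Map1a* (1.02) and *Nqo1* (0.94) were higher in both lines, and *Msmo1* (0.42), *Fdft1* (0.25) and *Insig1* (0.46), cholesterol genes called in CreER, had intervals above 0. The differences between the lines were not tested.

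**Figure D5:**
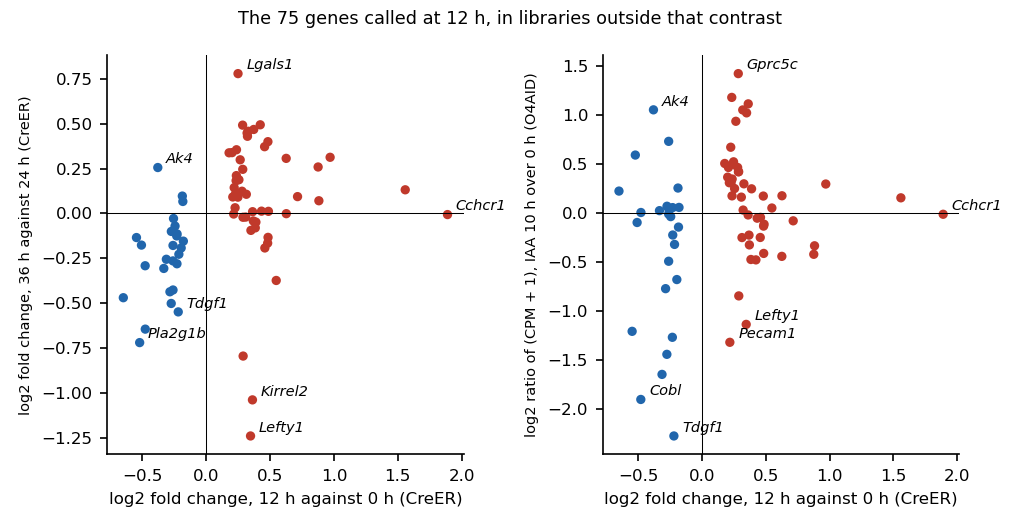
For the 75 genes called at 12 h (x axis, log2 fold change at 12 h against 0 h), the log2 fold change at 36 h against 24 h in CreER (left, y axis) and the log2 ratio of CPM plus 1 at 10 h over 0 h of IAA in O4AID (right, y axis), with genes called higher in red and lower in blue. On the left *Lefty1*, at -1.24, is the lowest, and on the right *Tdgf1* is the lowest at -2.28 and *Cchcr1* lies at -0.01.

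Promoters were searched for the octamer ATGCAAAT, which POU factors bind, and for the palindromic oestrogen response element GGTCANNNTGACC, on both strands, in the 300 bases from 250 before to 50 after each RefSeq start (GRCm38.p6). Of the 75 called genes 46 had a promoter in the table, and 1 of the 25 that rose and 0 of the 21 that fell held the octamer, against 1.66% of 12035 tested genes with a promoter. The gene was *Hs3st3b1*, at 15.0 and 13.8 CPM at 0 h and 19.9 and 18.4 CPM at 12 h (0.42, SE 0.082). Its 250 bases (chr11:63922285-63922534, minus strand, 5′ to 3′) are shown as the sole match, with the octamer, here on the opposite strand, in capitals 97 bases before the start.
Hs3st3b1: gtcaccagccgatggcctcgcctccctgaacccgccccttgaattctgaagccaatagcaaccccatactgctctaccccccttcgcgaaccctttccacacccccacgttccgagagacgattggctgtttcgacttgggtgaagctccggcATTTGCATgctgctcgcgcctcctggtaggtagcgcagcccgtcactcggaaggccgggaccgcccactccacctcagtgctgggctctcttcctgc
The oestrogen response element was found in 0 of the 46 and in 4 of the 12035 genes. Such matches describe letters in short windows, and nothing about binding follows from them.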

How the data were processed

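Ribosomal RNA-depleted, directional RNA-seq libraries of CreER and O4AID ESCs were deposited as tables of raw read counts per gene, with 48801 entries each. These counts were made by the authors with Trim Galore 0.1.4, TopHat2 2.1.0 and featureCounts 1.5.1 on GRCm38/mm10, per the submitters' processing notes. Strand and multimapping settings are not given in the sources used here. Spike-in entries (92, with 0 reads) were not used. Of the remaining 48709 genes, 48349 had a symbol.

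The 10 CreER libraries were fitted together in edgeR 4.0.16 (R 4.3.3; TMM factors, filterByExpr, robust quasi-likelihood test, prior count 0.125) with limma 3.58.1 loaded, and 12 h was contrasted with 0 h. P-values were adjusted over 18969 genes by Benjamini-Hochberg, and genes were called at an adjusted p under 0.05. Tables were handled in Python 3.11.15 with pandas 2.3.3, numpy 2.4.6 and SciPy 1.17.1. The study's NOISeq-sim test, which simulates replicates, was not run. Total counts were 24.5 to 30.8 M in the 4 libraries, and replicates differed by more than counting error (chi-square per degree of freedom 5.63 at 0 h and 4.4 at 12 h).

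Called genes were named, except a few that are not reported here. The 12 largest rises and 12 largest falls with a mean of at least 50 counts, the study's marker genes, and list members called or with the smallest p were given values. Members and lists were chosen with earlier results of these data known. Alternatives were DESeq2 1.42.0, other scalings and filters, the 4 libraries alone, a replicate block and leaving out each library. Deviations of same-numbered 0 h and 12 h replicates correlated at r = 0.06, so the numbers were not taken to pair the libraries.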

Additional observations from a re-analysis of the deposited data

How the results depend on the processing

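All 75 calls kept their direction in every alternative in which they were tested, and 5 of them kept the call in each. Without a filter on low counts 222 genes were called (136 higher, 86 lower). Total-count scaling, which moved the median of all genes from 0.00 to -0.04, gave 31 higher and 53 lower. An adjusted p under 0.01 left 30 genes and one under 0.10 gave 144. DESeq2 called 61 genes (38 higher, 23 lower), and the fit of the 4 libraries alone 51. With a replicate block 89 genes were called (60 higher, 29 lower), including all 75, while same-numbered replicates of 0 h and 12 h correlated at 0.06 and so share no more than a number. Leaving out all mitochondrial genes, an alternative chosen after seeing the data, left 68 calls. Leaving out 1 library at a time gave between 8 and 218 calls, 4 to 138 higher and 4 to 80 lower. The lowest number came without 12 h replicate 1. The cause of these shifts was not tested.

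Under total-count scaling the list medians (log2) were -0.058 for the study's pluripotency genes, -0.123 for other naive pluripotency, -0.018 for epithelial junction, 0.106 for immediate early, -0.012 for LIF-STAT3, -0.002 for oestrogen receptor, -0.095 for xenobiotic response, 0.079 for cholesterol synthesis, -0.015 for p53, -0.079 for DNA methylation and -0.013 for POU family genes. The medians of the epithelial junction, LIF-STAT3, oestrogen receptor, p53, POU, mesoderm and neural, Wnt and interferon lists changed sign there. With at least 10 counts in every library the median was -0.039 for mesoderm and neural and -0.059 for fibroblast genes, and -0.054 for fibroblast genes with the 4 libraries alone. Leaving out 1 library at a time, medians ranged from -0.038 to -0.011 (study pluripotency), -0.029 to 0.229 (study trophectoderm), 0.091 to 0.154 (other trophoblast), 0.013 to 0.044 (epithelial junction), 0.098 to 0.161 (immediate early), -0.01 to 0.055 (LIF-STAT3), 0.001 to 0.101 (Nodal and BMP), 0.050 to 0.068 (oestrogen receptor), -0.060 to -0.029 (xenobiotic response), 0.059 to 0.143 (ATF4 and ER stress), 0.036 to 0.075 (POU) and -0.013 to 0.169 (fibroblast).

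None of the single genes that changed sign was called. *Klf4* was -0.011 under total-count scaling, and *Prdm14* -0.008 there and between -0.088 and 0.173 without 1 library, negative without 0 h replicate 1 (-0.088) and 12 h replicate 2 (-0.038). Without 1 library, *Cdx2* ranged from -0.417 to 0.077 (positive without 12 h replicate 1) and *Hand1* from -0.029 to 0.348 (negative without 0 h replicate 2).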

Other observations

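Selenoprotein genes, whose proteins carry selenocysteine and which include antioxidant enzymes, were examined after *Selenow*, *Selenoh* and *Txnrd1* had been seen among the calls, so the list has no test of its own. Of 21 tested, 3 rose (0.258% of all genes did), 0 fell and 18 had a positive log2 fold change (49.9% of all genes), with a median of 0.13. *Selenow* stood at 20.9 and 20.9 CPM at 0 h and at 29.3 and 27.0 CPM at 12 h, *Selenoh* at 68.0 and 63.8 CPM and at 82.1 and 81.6 CPM, and *Txnrd1* at 491.4 and 470.7 CPM and at 555.5 and 561.2 CPM. In all 3 the groups did not overlap, as was so for every called gene and for 19.2% of all genes tested in the upward direction. Total-count scaling left 14 positive with 2 called, and 0 were called without 0 h replicate 2 or without either 12 h library.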
